A study of Mus musculus with 128 samples.

Results

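Brown adipose tissue of the inbred mouse strains SM/J and LG/J was compared after a high-fat diet, at 30 weeks of age. The comparison rests on 16 of the 128 libraries of the series, 8 from SM/J and 8 from LG/J, with 4 females and 4 males in each strain. The members were taken by their labels (strain, diet, age and tissue) and not by any measured value. The tissue is interscapular brown fat, frozen and sequenced as ribosome-depleted total RNA, with 1 library per animal. All animals of both groups had the same diet, and neither strain carries a transgene or drug treatment in the labels, so each strain is the reference of the other. The series was designed around the expansion of brown fat and the recovery of glycaemic control in obese SM/J mice, with LG/J as the second strain, and holds 4 animals for each combination of strain, diet, age, sex and tissue. Neighbouring groups used below for comparison are SM/J and LG/J high-fat brown fat at 20 weeks, low-fat brown fat at 30 weeks, and high-fat white fat of the same animals at 30 weeks, each with 8 libraries per strain.

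Brown adipocytes burn fatty acids in abundant mitochondria and release the energy as heat through the uncoupling protein UCP1, under the control of noradrenaline acting on beta-adrenergic receptors and cAMP. They also make fat from glucose, store it in many small lipid droplets and secrete factors that act on vessels, nerves and other organs. On a high-fat diet brown fat can take up more lipid and gain features of white fat, and it also holds macrophages, fibroblasts, endothelial cells, nerves and, at its border, skeletal muscle.

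Both deposited tables hold the authors' normalised counts, and 12450 genes were listed in both. Their column totals ran from 17930804 to 19565708 in SM/J and from 18305849 to 20682311 in LG/J. Values are given below in CPM, each count scaled to a common library total, after scaling the 16 libraries together, and differences as SM/J minus LG/J on the log2(CPM + 0.1) scale, adjusted for sex, with the standard error. Adjusted p is Benjamini-Hochberg over the 12450 genes from limma, and a gene was called where it was under 0.05. The authors normalised the 2 tables separately, 1 table per strain, so strain and table cannot be told apart. No X-linked, Y-linked or mitochondrial gene was among those compared. The uncoupling protein gene Ucp1, which defines brown fat, was high in all 16 libraries (lowest 2948 CPM), against means of 26.3 ± 15.1 (SD, n = 8) in SM/J and 40.6 ± 59.2 (SD, n = 8) in LG/J white fat of the same animals. In whole tissue, fewer cells of a type and less RNA per cell cannot be told apart.

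Correlations of log2 levels between libraries were 0.974 to 0.993 within SM/J and 0.932 to 0.972 between the strains. LG/J males 619 and 625 stood apart. They correlated at 0.991 with each other, at 0.965 to 0.972 with the other 6 LG/J libraries, which reached 0.98 to 0.989 among themselves, and at 0.961 to 0.972 with SM/J. They were within the range of the other LG/J libraries at Arhgef37, at no more than 3.60 CPM against at least 114 CPM in SM/J. At other genes they lay beyond that range towards SM/J, as for Bcat1 at 3.59 and 4.96 CPM. At some genes they lay outside both strains. The heat shock gene Dnajb1 was at 157.5 and 162.2 CPM in them. It reached at most 43.26 CPM in the other 6 LG/J libraries and 59.4 CPM in SM/J. The cause was not tested. Several results are given with and without these males, and counts given only with them may also depend on them. A few libraries also held skeletal muscle RNA. The summed level of the 5 muscle markers compared (of 18 listed) was 37.1 to 2751 CPM in SM/J and 60.3 to 510 CPM in LG/J, highest in SM/J males 656 (2751) and 653 (2191). The 6 libraries of highest sum, left out in 1 setting below, also included SM/J female 786, SM/J male 700 (115.4 CPM), LG/J female 281 and LG/J male 537. LG/J males 619 and 625 stayed in that setting. A call can end there because fewer libraries remain.

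**Figure D1:**
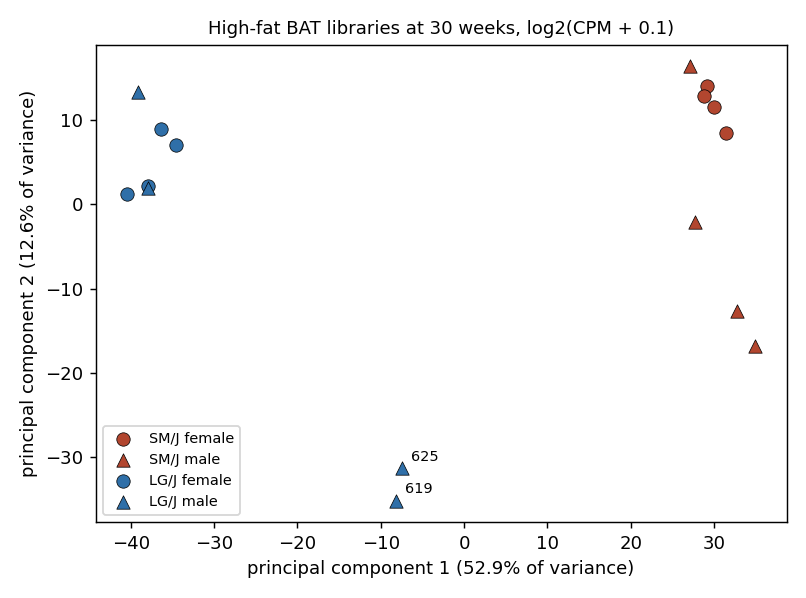
Each point is 1 of the 16 high-fat brown fat libraries at 30 weeks, placed by the first 2 principal components of log2(CPM + 0.1), with the share of variance on each axis, circles for females and triangles for males. The SM/J libraries lie between 27.1 and 34.9 on the first component, 6 LG/J libraries between -40.4 and -34.6, and LG/J males 619 and 625 between the strains at -8.2 and -7.42. On the second component these 2 males lie lowest, at -35.1 and -31.2.

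The strains differed across the whole transcriptome. Of the 12450 genes, 3052 were higher in SM/J (24.5%) and 2909 were lower (23.4%). A difference of at least 1 on the log2 scale was reached by 586 of the higher and 249 of the lower genes. For 1727 genes (13.9%) the 8 libraries of 1 strain all lay above the 8 of the other. Without LG/J males 619 and 625 the counts were 3226 higher and 3221 lower. Calls followed base composition: in the fifth of genes with the lowest GC content 34.4% were higher and 11.3% lower in SM/J, against 16.8% and 34.1% in the fifth with the highest. With a GC trend removed from the levels of each library, 2925 genes were higher and 2914 lower, of 12347 with a GC value. They also followed the mean level: in the fifth of genes with the lowest mean 30% were higher and 12.8% lower, against 18.3% and 31.7% in the fifth with the highest mean.

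The largest difference was at Arhgef37, which codes for a guanine nucleotide exchange factor family protein. Its lowest, median and highest levels were 114, 118 and 130.4 CPM in SM/J and 2.74, 3.18 and 4.68 CPM in LG/J. The groups were far apart, with a difference of 5.13 ± 0.09 (adjusted p = 3.24e-17). Gdpd3 (GRCm38 chromosome 7, 126766334 to 126775649), a lysophospholipase D family gene, ran from 41.1 through a median of 49.9 to 58.3 CPM in SM/J and from 1.02 through 1.39 to 2.04 CPM in LG/J (5.03 ± 0.11, adjusted p = 1.21e-15). Both genes were present at a low, steady level in LG/J and at a high, steady level in SM/J.

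Gpt2 (chromosome 8, 85492576 to 85527560), the mitochondrial alanine aminotransferase that interconverts alanine and pyruvate, was 265, 322 and 405 CPM at its lowest, median and highest in SM/J and 11.7, 17.8 and 22.7 CPM in LG/J. The difference was 4.24 ± 0.12 (adjusted p = 6.18e-14). Every SM/J library was above every LG/J library, which the choice of the genes with the largest differences required. Bcat1 (chromosome 6, 144993835 to 145076184), the cytosolic enzyme that starts the breakdown of branched-chain amino acids, had levels of 17.2, 30.1 and 39.4 CPM in SM/J and 0.639, 1.35 and 4.96 CPM in LG/J (4.19 ± 0.34, adjusted p = 4.54e-08). H2-Q10 (chromosome 17, 35470089 to 35474563), a secreted class I histocompatibility molecule, had levels of 144, 172 and 225 CPM in SM/J and 7.49, 11.1 and 23.8 CPM in LG/J (3.94 ± 0.18, adjusted p = 2.7e-11). Of the 50-base stretches in H2-Q10 transcripts, 19.1% occur in other genes as well, so its reads may be shared with related class I genes. The other genes chosen for large positive differences were Rnaset2a (4.30), Cilp (4.02), Cryab (3.85), Col28a1 (3.79) and Ighm (3.76). Rnaset2a shares 78.9% of its 50-base stretches, mostly with Rnaset2b, and its value is uncertain. Cilp codes for a cartilage matrix protein, Cryab for a small heat shock protein, Col28a1 for a collagen and Ighm for the heavy chain of immunoglobulin M.

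In the other direction, Tmem45a (chromosome 16, 56805161 to 56886166), which codes for a transmembrane protein, was barely present in SM/J. Its levels were 0.794, 0.963 and 1.15 CPM there and 8.92, 38.9 and 70.8 CPM in LG/J, a difference of -4.96 ± 0.34 (adjusted p = 5.33e-09). The LG/J libraries varied widely but none came near SM/J. Mmd2 differed by -4.01 ± 0.22, Aldh1a7, an aldehyde dehydrogenase, by -3.87 ± 0.29, and Il17re, an interleukin 17 receptor subunit, by -3.61 ± 0.26. Cyp2e1, a cytochrome P450 that oxidises ethanol and ketones, had levels of 0.512, 0.989 and 2.25 CPM in SM/J and 2.97, 17.5 and 63.2 CPM in LG/J (-3.37 ± 0.45, adjusted p = 1.24e-05). The remaining genes of this group were Fsd2 (-3.30), Gmnn (-2.58), an inhibitor of DNA replication licensing, Hdhd3 (-2.57) and H2-Q2 (-2.53), together with the histone gene Hist1h3e (-4.01), which shares 73.4% of its 50-base stretches with other histone genes. H2-Q2 shares 16.1% of its 50-base stretches, mostly with H2-Q1 and other class I genes, so its reads may be shared with them. Of these class I genes, H2-Q1 was listed for SM/J only and H2-Bl for LG/J only. Strain sequence differences that could affect mapping were not examined for any gene. In each gene of this group, from Tmem45a to Hist1h3e, all 8 SM/J libraries lay below all 8 LG/J libraries. The choice of these genes required this, so it is no separate result.

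Among abundant genes that differed by at least 1, those lower in SM/J included several of adipocyte metabolism. Pck1 (chromosome 2, 173153048 to 173159273), which makes glycerol 3-phosphate from pyruvate in fat cells, had levels of 2223, 3563 and 4218 CPM in SM/J and 6022, 6999 and 8933 CPM in LG/J, a difference of -1.17 ± 0.13 (adjusted p = 1.45e-06). Car3, the carbonic anhydrase of adipocytes, had 773, 1420.5 and 2342 CPM in SM/J and 3024, 4406 and 6156 CPM in LG/J (-1.67 ± 0.20). The groups did not overlap for either gene, which the choice of these abundant genes required. Clstn3, a calsyntenin (-1.41 ± 0.12), and Ppa1, an inorganic pyrophosphatase (-1.41 ± 0.07), were also lower. The abundant genes that were higher in SM/J were Lep and Npr3 (described below), Sncg, Hp, Gpt2 and Rps2. Hp, the haemoglobin scavenger haptoglobin, had 1489, 1969 and 3620.0 CPM in SM/J against 579, 919 and 1239.7 CPM in LG/J (1.20 ± 0.17, adjusted p = 2.13e-05). The ribosomal protein gene Rps2 differed by 1.14 ± 0.06, and 43% of its 50-base stretches occur in pseudogenes or other genes.

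**Figure D2:**
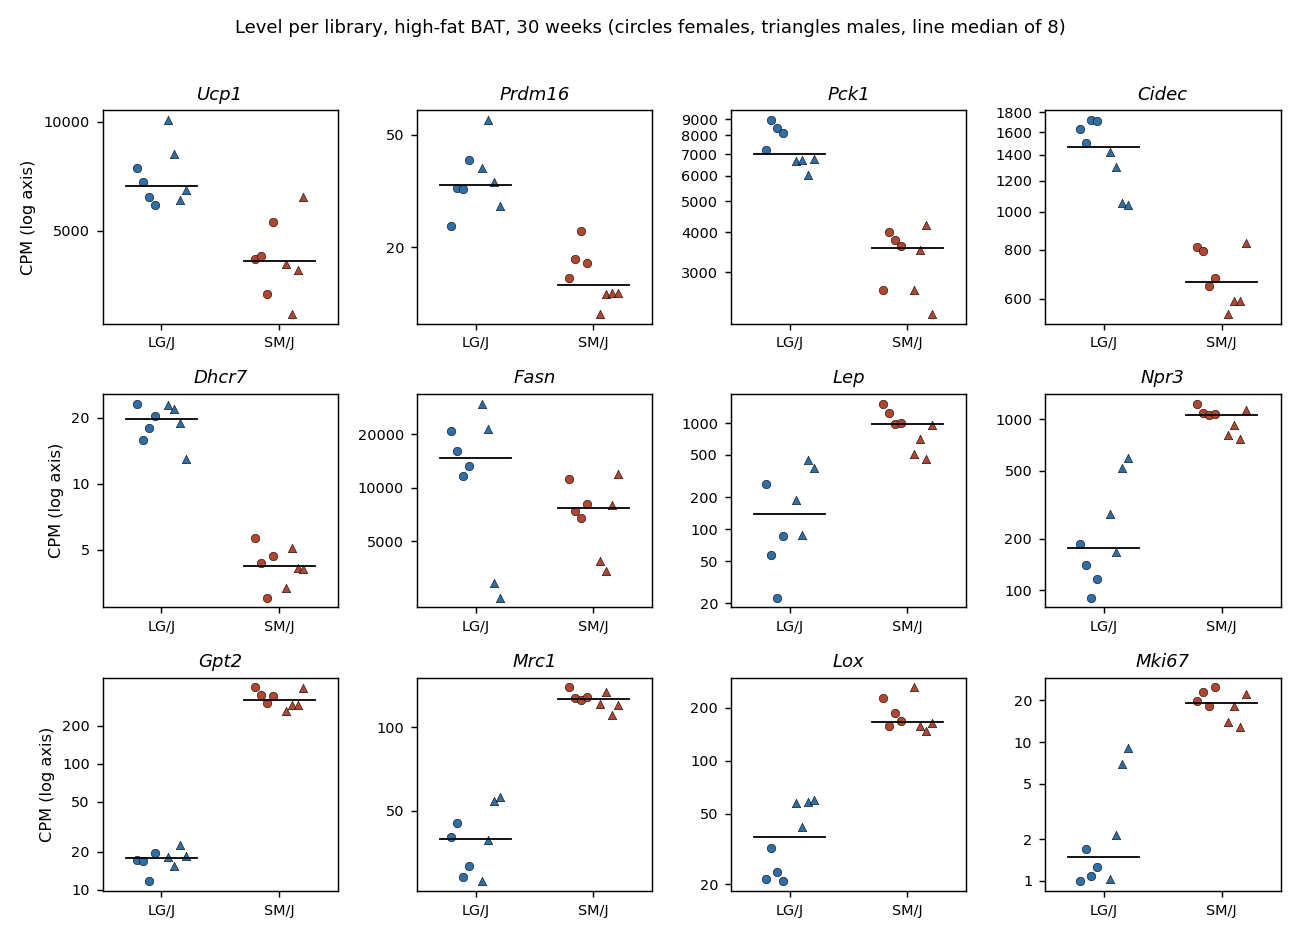
Level of 12 genes in every library, as CPM on a log axis, with LG/J in blue and SM/J in red, circles for females, triangles for males and a line at the median of 8. Gpt2 shows the widest gap (medians 17.8 and 322 CPM), Ucp1 overlaps through 1 SM/J male at 6182 CPM, and Fasn is lowest in 2 LG/J males at 2407 and 2916 CPM.

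Genes of the brown adipocyte were lower in SM/J or did not pass the test. Of 24 members measured (of 25 listed), 14 were lower and none was higher, against 23.4% lower and 24.5% higher among all genes, with a median of -0.42 against 0.00389 for all genes. Ucp1 (chromosome 8, 83290352 to 83298452) had levels of 2948, 4121 and 6182 CPM in SM/J and 5871, 6655 and 10092 CPM in LG/J. The SM/J male 700 had the highest SM/J level, and the other 7 SM/J libraries were below every LG/J library. The difference was -0.75 ± 0.15 (adjusted p = 0.00063). Prdm16 (chromosome 4, 154316125 to 154636873), a transcriptional regulator of brown fat identity, had 11.6, 14.7 and 22.9 CPM in SM/J and 23.7, 33.2 and 56.3 CPM in LG/J, with no overlap (-1.15 ± 0.16, adjusted p = 1.54e-05). Kcnk3, a potassium channel of brown adipocytes, had 155, 195 and 232 CPM in SM/J and 278, 412 and 538 CPM in LG/J (-1.03 ± 0.12, adjusted p = 3.12e-06). The mitochondrial carrier Ucp3 (-1.16 ± 0.16), the coactivators Ppargc1b (-0.53 ± 0.08) and Ppargc1a (-0.32 ± 0.12), and Otop1, a proton channel (-0.54 ± 0.10), were lower as well.

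Cidea, a lipid droplet protein of brown adipocytes, differed by -0.47 ± 0.12 (adjusted p = 0.00325), a call that ended under quantile normalisation (-0.23, adjusted p = 0.0957). The developmental marker Zic1, the deiodinase Dio2 and the cytochrome oxidase subunit Cox7a1 were not called (-0.10, -0.38 and -0.34). Zic1 levels of 5.57 to 12.1 CPM in SM/J and 6.12 to 11.9 CPM in LG/J covered the same range. Elovl3, a fatty acid elongase of active brown fat, varied most. It had levels of 0.835, 9.23 and 37.2 CPM in SM/J and 1.35, 52.6 and 118 CPM in LG/J (-1.65 ± 0.86, adjusted p = 0.125). LG/J males 619 and 625 were at 1.35 and 1.97 CPM and the other 6 LG/J libraries at 34.6 CPM or more. Without these males the difference was -2.79 (adjusted p = 0.00288), and 17 brown adipocyte genes were lower with none higher. Without the 6 libraries of highest muscle marker sum 10 were lower and none higher.

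Receptors and signalling genes upstream of heat production moved in the same direction in part. Of 19 adrenergic and cAMP genes, 8 were lower and 1 was higher (median -0.14). Adrb3, the main beta receptor of mouse fat, had levels of 246, 311 and 336 CPM in SM/J and 276, 423 and 620.2 CPM in LG/J (-0.47 ± 0.13, adjusted p = 0.00579). Only 2 SM/J libraries were below the LG/J range. The call ended without the 6 libraries of highest muscle marker sum, with a similar difference on fewer libraries (-0.41, adjusted p = 0.144). The phosphodiesterase Pde4d, which degrades cAMP, was lower (median 93.8 CPM in SM/J and 188 CPM in LG/J, adjusted p = 2.77e-06). The stimulatory G protein gene Gnas (-0.73 ± 0.09), the alpha receptor Adra1a (-0.54 ± 0.07) and the kinase anchor Akap1 (-0.46 ± 0.08) were lower as well. Arrb2, an arrestin that uncouples receptors, was the gene that was higher (0.35 ± 0.10). Of 9 genes of creatine, calcium and glycerol cycling, 2 were higher and 4 lower. Both of the higher genes belong to creatine metabolism, as does Alpl among the lower ones. Gatm, which starts creatine synthesis, had 8.08, 9.45 and 10.5 CPM in SM/J and 2.59, 3.22 and 5.32 CPM in LG/J (1.41 ± 0.13), and creatine kinase B, Ckb, differed by 0.63 ± 0.08. The calcium pump Atp2a2 (-0.44 ± 0.06) and the phosphatase Alpl (-0.86 ± 0.17) were lower.

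Mitochondrial genes differed by small amounts. Of 33 genes of the respiratory chain and ATP synthase, 9 were lower, a share near that of all genes (23.4%), and 1 was higher (median -0.14). The lower genes included the complex I subunits Ndufb3 (-0.39 ± 0.09) and Ndufs7 (-0.46 ± 0.12) and the complex II subunit Sdhd (-0.32 ± 0.08). Their counts depended on the libraries and the scaling. Without LG/J males 619 and 625, 15 were lower and none higher; with quantile normalisation 4 were lower and 4 higher; without the 6 libraries of highest muscle marker sum 4 were lower and none higher. In males alone none was called. Of 15 tricarboxylic acid cycle genes 7 were lower and none higher, and of 22 fatty acid oxidation genes 8 were lower and 1 higher. Among all genes 23.4% were lower, and in the fifth with the highest mean level 31.7% were. Many genes of these lists are abundant. Pcx, the pyruvate carboxylase, had 627, 655 and 763 CPM in SM/J and 842, 941 and 1037 CPM in LG/J (-0.47 ± 0.06, adjusted p = 1.16e-05), and Dlst, a subunit of 2-oxoglutarate dehydrogenase, differed by -0.40 ± 0.06. With quantile normalisation 2 tricarboxylic acid cycle genes were lower and 1 higher. Ehhadh, the bifunctional enzyme of peroxisomal oxidation, was lower (-1.23 ± 0.30), and Cpt1a, which admits fatty acids to mitochondria, was higher (0.43 ± 0.09).

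Fat synthesis and storage genes were lower in SM/J where they passed the test, with few exceptions. Of 19 genes of fatty acid and triglyceride synthesis, 10 were lower and 1 higher (median -0.49). Dgat1, which makes triglyceride from diacylglycerol, had levels of 177, 198 and 234 CPM in SM/J and 285, 329 and 366 CPM in LG/J, with no overlap (-0.71 ± 0.07, adjusted p = 2.46e-07). Acsl1, which activates long-chain fatty acids, had 2593, 3015 and 3518 CPM in SM/J and 4152, 4738 and 5245 CPM in LG/J (-0.66 ± 0.09, adjusted p = 1.16e-05). Agpat2, which makes phosphatidic acid, differed by -1.01 ± 0.19, the second triglyceride enzyme Dgat2 by -0.49 ± 0.07, and the elongase Elovl5 by -0.62 ± 0.09. The higher gene was the phosphatidate phosphatase Lpin1 (0.62 ± 0.15).

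Fasn, the fatty acid synthase, had levels of 3391, 7694 and 11924 CPM in SM/J and 2407, 14712 and 29701 CPM in LG/J (-0.67 ± 0.46, adjusted p = 0.243). LG/J males 619 and 625 had the lowest levels of all 16 libraries (2916 and 2407 CPM), while the other 6 LG/J libraries had 11580 CPM or more. Without them the difference was -1.36 (adjusted p = 0.00119), and 14 genes of the list were lower with 1 higher. The carboxylase Acaca (-0.12 ± 0.36) and the desaturase Scd1 (-0.15 ± 0.24) were not called.

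Of 18 lipolysis and lipid droplet genes 8 were lower and none higher (median -0.26). Cidec (chromosome 6, 113424634 to 113435760), which fuses lipid droplets, had 548, 662 and 833 CPM in SM/J and 1039, 1462 and 1716 CPM in LG/J, with no overlap (-1.04 ± 0.10, adjusted p = 2.58e-07). The lipases Lipe (-0.39 ± 0.07) and Pnpla2 (-0.54 ± 0.11), which break down stored triglyceride, were lower. Lipid uptake genes were divided, with 5 of 18 higher and 8 lower. Cd36, a fatty acid transporter, had 3679, 4602 and 5314 CPM in SM/J and 3146, 3528 and 3722 CPM in LG/J (0.39 ± 0.09, adjusted p = 0.00138), and 7 of the 8 SM/J libraries were above all LG/J libraries. Angptl4, an inhibitor of lipoprotein lipase, was also higher (0.85 ± 0.21). The lipoprotein receptor Vldlr (-0.56 ± 0.06), the apolipoprotein Apoc1 (-1.75 ± 0.24) and the fatty acid transporter Slc27a1 (-0.99 ± 0.16) were lower.

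Of 20 genes of glucose uptake and glycolysis 9 were lower and 2 higher (median -0.12). Gpi1, the glucose 6-phosphate isomerase, had 192, 260.2 and 288 CPM in SM/J and 389, 429 and 491 CPM in LG/J (-0.81 ± 0.09, adjusted p = 1.05e-06). Pfkp, a phosphofructokinase, had 121, 127 and 175 CPM in SM/J and 195, 286 and 395 CPM in LG/J (-1.02 ± 0.12, adjusted p = 2.23e-06). Neither gene overlapped between the strains. The insulin-responsive glucose transporter Slc2a4 (-0.59 ± 0.11), hexokinase Hk2 (-0.56 ± 0.13) and glycogen synthase Gys1 (-0.63 ± 0.08) were lower too. Of 21 insulin signalling genes 6 were lower, a share near that of all genes (23.4%), and 3 were higher, against 24.5% of all genes. The list median of -0.02 was positive without further scaling and with quantile normalisation. The lower ones included the receptor Insr (-0.39 ± 0.07), its substrate Irs1 (-0.70 ± 0.21) and the kinase Akt2 (-0.51 ± 0.06), and the higher ones were Pik3ca, Igf1r and Trib3 (0.13, 0.35 and 0.35).

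Cholesterol synthesis genes were lower in SM/J in 12 of 17 cases, with none higher (median -0.62). Dhcr7 (chromosome 7, 143823145 to 143848410), which makes cholesterol from 7-dehydrocholesterol, had levels of 3.03, 4.24 and 5.64 CPM in SM/J and 12.9, 19.7 and 23.2 CPM in LG/J, a difference of -2.14 ± 0.14 (adjusted p = 3.38e-09) with no overlap. Cyp51, a sterol demethylase (-0.69 ± 0.11), Srebf2, the transcription factor of the pathway (-0.48 ± 0.07), and Insig1, which retains that factor's precursor in the endoplasmic reticulum (-0.90 ± 0.14), were lower. In the RefSeq promoters, which run from 250 bases before to 50 bases after each start, the sterol regulatory letters TCACNCCAC on either strand were found in 1 of 12 list members with a promoter (Hmgcs1, 8.33%), in none of the 9 that were lower in SM/J and in 1.44% of 27025 genes.

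Amino acid genes showed larger contrasts within a pathway. Of 18 genes of branched-chain amino acid breakdown 11 were lower and 2 higher (median -0.28). The higher genes were Bcat1, given above, and Pccb, a propionyl-CoA carboxylase subunit, with 458, 506 and 602 CPM in SM/J and 306, 341 and 378 CPM in LG/J (0.58 ± 0.07). Mccc2, a methylcrotonyl-CoA carboxylase subunit of leucine breakdown, had 104, 111 and 129 CPM in SM/J and 159, 179 and 194 CPM in LG/J (-0.66 ± 0.05, adjusted p = 3.65e-08). Ivd, the isovaleryl-CoA dehydrogenase of the same pathway, differed by -0.68 ± 0.07. Mccc2 and Ivd did not overlap between the strains. Of 16 genes of serine, glycine and one-carbon metabolism 4 were higher and 7 lower. Mthfd1, a folate enzyme, had 90.1, 92.8 and 104 CPM in SM/J and 49.5, 55.2 and 63.6 CPM in LG/J (0.77 ± 0.05, adjusted p = 6.99e-09), whereas Shmt1, which moves a carbon from serine to folate (-1.19 ± 0.13), and Gldc, the glycine decarboxylase (-1.52 ± 0.17), were lower.

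Leptin stood out among genes of white adipocytes. Lep (chromosome 6, 29060220 to 29073877), the satiety hormone of fat cells, had levels of 460.4, 976 and 1524 CPM in SM/J and 22.6, 138 and 445 CPM in LG/J. The groups did not overlap, though the highest LG/J library nearly reached the lowest SM/J library (2.72 ± 0.50, adjusted p = 0.000286). The 2 highest LG/J libraries were males 619 and 625 at 445 and 379 CPM, and without them the difference was 3.30. In males alone, which include both, it was 1.46 (adjusted p = 0.0578). Npr3 (chromosome 15, 11839896 to 11907287), the receptor that clears natriuretic peptides, had 764, 1067 and 1235 CPM in SM/J and 90.3, 176 and 590.0 CPM in LG/J (2.25 ± 0.30, adjusted p = 1.08e-05). Sncg, the synuclein of white adipocytes, differed by 2.50 ± 0.31. Not all white fat genes moved this way. Cfd, the secreted complement factor adipsin, had 45.8, 66.3 and 137 CPM in SM/J and 102, 458 and 928 CPM in LG/J (-2.55 ± 0.35, adjusted p = 1.64e-05). In all, 7 of 15 white adipocyte genes were higher and 6 lower. Adipoq, adiponectin, was not called, with 692 to 863 CPM in SM/J and 688 to 1353 CPM in LG/J (-0.14 ± 0.11).

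Of 18 adipocyte transcription factors 9 were lower and 2 higher (median -0.25). The orphan receptor Esrra, a regulator of mitochondrial genes, was lower (-0.60 ± 0.09), Cebpd was higher (1.25 ± 0.31), and Pparg, the master regulator of fat cells, was not called (-0.13 ± 0.09). Of 13 factors secreted by brown fat 6 were higher and 3 lower. Adm, the vasodilator adrenomedullin, had 10.4, 13.3 and 22.9 CPM in SM/J and 1.7, 2.78 and 8.82 CPM in LG/J (2.17 ± 0.28), and the guidance factor Slit2 differed by 1.52 ± 0.21. Vegfa, the main angiogenic factor, was lower (-0.37 ± 0.06), with 339.9 to 417 CPM in SM/J and 432 to 559 CPM in LG/J. Among genes of steroid, retinoid and thyroid hormone handling, 4 of 16 were higher and 7 lower. Esr1, the oestrogen receptor, had 6.85, 12.4 and 16.3 CPM in SM/J and 17, 34.3 and 50.7 CPM in LG/J (-1.52 ± 0.21), and the glucocorticoid-induced chaperone Fkbp5 was higher (1.28 ± 0.24).

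Macrophage markers were higher in SM/J in 18 of 20 cases with none lower (median 1.51), and in 16 of the 18 the strains did not overlap, against 13.9% of all genes. Their summed level ran from 831 to 1168 CPM in SM/J and from 265 to 544 CPM in LG/J, so that the lowest SM/J library was above the highest LG/J library. Mrc1, the mannose receptor of resident macrophages, had 111, 127 and 139.8 CPM in SM/J and 27.9, 39.7 and 56.1 CPM in LG/J (1.68 ± 0.13, adjusted p = 3.4e-08). Lyz2, lysozyme, had 161, 235 and 290.0 CPM in SM/J and 34.6, 52.8 and 89.7 CPM in LG/J (1.97 ± 0.18, adjusted p = 1.42e-07). It shares 15.4% of its 50-base stretches with Lyz1, which was listed for SM/J only. Adgre1, which codes for the F4/80 antigen, had 27.8, 34.9 and 42.2 CPM in SM/J and 7.76, 13.3 and 18.7 CPM in LG/J (1.48 ± 0.19, adjusted p = 6.29e-06). The complement subunit gene C1qb differed by 1.70 ± 0.18, and Cd163, a scavenger receptor, was not called (0.26 ± 0.18). Trem2, Lgals3 and Gpnmb, genes of lipid-laden macrophages, were among the largest differences of the list (2.21, 2.32 and 2.21), and were named after their values were seen. All 20 markers were higher without LG/J males 619 and 625, and 17 without the 6 libraries of highest muscle marker sum. Macrophage RNA therefore moved with strain in the same libraries as the adipocyte differences above, and its part in them was not tested.

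Of 14 inflammatory cytokines and chemokines 9 were higher and 2 lower (median 1.17). Ccl6, a macrophage chemokine, had 37.5, 46.6 and 58.8 CPM in SM/J and 5.02, 11.8 and 16.7 CPM in LG/J (2.16 ± 0.20), and Ccl9 differed by 2.10 ± 0.33. Without the 6 libraries of highest muscle marker sum 4 of the 14 were higher. The lower genes were the stromal chemokines Cxcl14 (-1.71 ± 0.26) and Cxcl12 (-0.85 ± 0.15). Of 13 complement and coagulation genes 9 were higher and 2 lower. C1s1, a protease of the classical pathway, had 58, 65.7 and 81 CPM in SM/J and 14.4, 17.8 and 23.5 CPM in LG/J (1.83 ± 0.11, adjusted p = 6.3e-10). It shares 35.1% of its 50-base stretches with other genes. F13a1, a clotting factor subunit made by macrophages, differed by 2.03 ± 0.14, and tissue factor, F3, by 1.61 ± 0.20.

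Other blood cell markers were few. None of 18 T and NK cell markers was among the genes compared. Ighm, the immunoglobulin M heavy chain, had 24.9, 57.2 and 127 CPM in SM/J and 0.989, 4.22 and 6.55 CPM in LG/J (3.76 ± 0.38, adjusted p = 5.34e-07). It and the B cell genes Cr2 and Cd79a were the 3 B cell markers measured of 12 listed, all higher. Cr2 and Cd79a were low and overlapped between the strains. Cr2 had 0.89 to 1.86 CPM in SM/J and 0.54 to 1.13 CPM in LG/J, and Cd79a 1.45 to 2.65 and 0.97 to 2.08 CPM. Only Ighm kept its call without LG/J males 619 and 625, with a median over the list of 0.42. Of 8 mast cell and granulocyte markers 6 were lower and none higher (median -0.71). The 6 lower genes were mast cell genes, led by the histamine-forming enzyme Hdc (-0.83 ± 0.18) and the protease Cma1 (-0.92 ± 0.20). The 2 granulocyte genes measured, Csf3r and S100a9, were not called and had positive differences. In males alone none of the 8 was called.

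Interferon response genes were higher in SM/J in 13 of 20 cases and lower in 1 (median 0.63). Ifit3, an antiviral protein induced by interferon, had 6.77, 8.56 and 15.9 CPM in SM/J and 1.54, 2.02 and 3.12 CPM in LG/J (2.06 ± 0.18, adjusted p = 1.21e-07). It shares 51.2% of its 50-base stretches with its copy Ifit3b and its value is uncertain. Ifit2 of the same family had 11.1, 12.5 and 14.3 CPM in SM/J and 3.99, 4.73 and 6.65 CPM in LG/J (1.29 ± 0.11, adjusted p = 5.68e-08), and Ifih1, a sensor of viral RNA, had 22.8, 25.4 and 28 CPM in SM/J and 7.38, 9.98 and 17.3 CPM in LG/J (1.30 ± 0.13). The strains did not overlap for these 3 genes. Rsad2, the antiviral enzyme viperin, had 6.97, 8.95 and 11.2 CPM in SM/J and 3.24, 4.97 and 31.4 CPM in LG/J, and its difference of 0.47 (adjusted p = 0.268) became 0.95 (adjusted p = 0.000204) without LG/J males 619 and 625, of which 619 alone was at 31.4 CPM. Without both males 16 of the 20 were higher and 1 lower, and without the 6 libraries of highest muscle marker sum 8 were higher and 1 lower. MHC and antigen presentation genes were higher in 8 of 18 cases and lower in 1. H2-Aa, a class II chain, had 78.6, 102 and 125 CPM in SM/J and 32.5, 43.5 and 78 CPM in LG/J (1.13 ± 0.14), and B2m, the class I light chain, differed by 1.05 ± 0.16. Without LG/J males 619 and 625, 12 of the 18 were higher.

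Interferon acts on promoters through the interferon-stimulated response element, searched here as GAAA, any 2 bases and GAAA again on either strand in the RefSeq promoters of build GRCm38.p6. It was found in 10 of 17 interferon list members with a promoter (58.8%), in 5 of the 11 that were higher in SM/J (45.5%) and in 3.99% of all 27025 genes. The 100 bases before the start of Ifit1 (chr19:34640789-34640888, plus strand) and Gbp2 (chr3:142620563-142620662, plus strand), which were higher in SM/J by 1.04 ± 0.16 and 0.98 ± 0.25, are shown with the match in capitals. Gbp2 codes for a guanylate-binding protein induced by interferon, and Ifit1 for a sensor of foreign RNA caps.
Ifit1: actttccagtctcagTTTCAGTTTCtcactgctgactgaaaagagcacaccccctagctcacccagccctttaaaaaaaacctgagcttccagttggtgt
Gbp2: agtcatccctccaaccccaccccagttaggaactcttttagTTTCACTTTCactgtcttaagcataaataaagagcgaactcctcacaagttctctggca
The sequences are those of the reference strain C57BL/6J. Neither SM/J nor LG/J sequence was used here.

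Matrix genes formed the most uniform stromal group. Of 27 collagens and matrix genes 24 were higher in SM/J and none lower (median 0.74). Lox, which cross-links collagen, had 147, 166 and 261 CPM in SM/J and 20.8, 37.1 and 59.8 CPM in LG/J (2.31 ± 0.19, adjusted p = 5.96e-08). Col14a1, a collagen that coats fibrils, had 59.1, 73.3 and 93.1 CPM in SM/J and 20.1, 25 and 39 CPM in LG/J (1.47 ± 0.11, adjusted p = 1.3e-08). Both were apart in all libraries. Thbs2, a thrombospondin, differed by 1.67 ± 0.15. Col1a1, the main chain of type I collagen, overlapped, with 58.1, 90.3 and 122 CPM in SM/J and 31.5, 50.9 and 93.2 CPM in LG/J (0.73 ± 0.13, adjusted p = 0.000202). Without the 6 libraries of highest muscle marker sum 21 of the 27 were higher, and 10 were in males alone. Preadipocyte and fibroblast markers were higher in 8 of 14 cases and lower in 1, led by the progenitor antigen Cd34 (1.18 ± 0.16) and the receptor Pdgfra (0.77 ± 0.16).

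Vascular and nerve markers were divided. Of 13 endothelial markers 5 were higher and none lower. Lyve1, the hyaluronan receptor of lymphatic endothelium that some macrophages also carry, had 16.6, 21.3 and 30.1 CPM in SM/J and 2.61, 5.62 and 9.69 CPM in LG/J (2.03 ± 0.19). Emcn, a sialomucin of veins and capillaries, differed by 0.93 ± 0.09. Of 9 pericyte and smooth muscle markers 6 were lower and 1 higher, among them the proteoglycan Cspg4 (-0.72 ± 0.08). Of 7 nerve and Schwann cell markers 2 were lower and 1 higher. Gfra3, a receptor for the nerve growth factor artemin, had 0.694, 0.864 and 1.94 CPM in SM/J and 2.91, 3.87 and 4.43 CPM in LG/J (-1.85 ± 0.18), and S100b, a calcium-binding protein of glia that fat cells also make, was higher (0.60 ± 0.16). Of 3 red blood cell markers 1 was higher, Hba-a1 (2.11 ± 0.60). It shares 72.3% of its 50-base stretches, mostly with Hba-a2, which was listed for LG/J only (mean 18.6 CPM), so its value is uncertain. The Hba-a1 call ended without the 6 libraries of highest muscle marker sum (1.22, adjusted p = 0.0754). Of the 5 muscle markers (median 1.24) 1 was lower, the light chain gene Myl1 (-0.56 ± 0.22, adjusted p = 0.0432), which lost its call when any of 12 libraries was left out in turn.

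Cell cycle genes were higher in SM/J in 8 of 10 cases with none lower (median 0.85). Of 23 listed, 13 were not among the genes compared. Mki67 (chromosome 7, 135689784 to 135716361), the proliferation marker Ki-67, had levels of 12.9, 19.1 and 24.9 CPM in SM/J and 0.997, 1.48 and 9.09 CPM in LG/J (3.11 ± 0.39, adjusted p = 5.51e-06). Top2a, the topoisomerase of dividing cells, had 8.33, 13.8 and 18.1 CPM in SM/J and 0.555, 1.47 and 6.29 CPM in LG/J (3.03 ± 0.39, adjusted p = 7.65e-06). Both groups were apart, and the highest LG/J libraries for Mki67 were males 625 and 619 (9.09 and 6.96 CPM), without which the difference was 3.75. The replication genes Mcm5 (1.00 ± 0.17) and Rrm2 (1.02 ± 0.18) and the sliding clamp Pcna (0.32 ± 0.08) were higher. Cdk1, the mitotic kinase, differed by 1.37 ± 0.33 (adjusted p = 0.00263), and by 1.38 (adjusted p = 0.0505) without the 6 libraries of highest muscle marker sum, where 6 of the 10 were higher. In males alone 2 were higher. Geminin, Gmnn, which holds back replication, was lower as given above (-2.58 ± 0.12).

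Genes of the cell division phase often carry CCAAT boxes (CCAAT) and a cell cycle homology region (CHR, searched as TTTGAA) close to the start. On either strand CCAAT was found in 8 of 9 cell cycle members with a promoter (88.9%) against 41.1% of all genes, and TTTGAA in 4 of 9 (44.4%) against 20.2%. Both were found in Mki67, Top2a, Cdk1 and Mcm2 and in 8.97% of all genes. The 150 bases before the start of the first 3 are shown, from RefSeq build GRCm38.p6, minus strand, written 5′ to 3′ towards the start, with both motifs in capitals in either orientation (ATTGG and TTCAAA are the reverse forms). They lie at chr7:135716380-135716529, chr11:99024190-99024339 and chr10:69352913-69353062.
Mki67: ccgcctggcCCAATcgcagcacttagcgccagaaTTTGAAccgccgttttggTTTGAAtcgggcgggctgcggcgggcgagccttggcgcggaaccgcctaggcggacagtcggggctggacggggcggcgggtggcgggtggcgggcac
Top2a: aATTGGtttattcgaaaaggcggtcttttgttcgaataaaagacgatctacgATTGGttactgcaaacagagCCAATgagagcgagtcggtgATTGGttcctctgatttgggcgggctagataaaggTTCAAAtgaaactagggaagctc
Cdk1: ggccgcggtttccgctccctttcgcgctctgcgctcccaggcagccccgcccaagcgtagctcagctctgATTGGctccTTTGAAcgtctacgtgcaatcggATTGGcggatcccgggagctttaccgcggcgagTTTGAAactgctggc
A match describes the letters and does not show that a factor binds there.

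Stress, detoxification and clock genes had no common direction. Of 20 unfolded protein and heat shock genes 4 were higher and 2 lower. Sdf2l1, a chaperone partner in the endoplasmic reticulum, was higher (1.10 ± 0.17), and the cytosolic chaperone Hsp90aa1 was higher (0.81 ± 0.20) with 47.5% of its 50-base stretches shared. Without LG/J males 619 and 625, 8 of these 20 were higher and 1 lower. Of 28 antioxidant and detoxification genes 5 were higher and 4 lower, led by the glutathione transferase Gsta3 (1.35 ± 0.25). Without these males 4 were higher and 7 lower. Of 17 clock genes 1 was higher and 3 lower, and of 17 immediate early genes 1 was higher and 1 lower. Without LG/J males 619 and 625, 4 immediate early genes were higher and 1 lower. The AP-1 subunit Fosl2 was higher (1.11 ± 0.23).

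**Figure D3:**
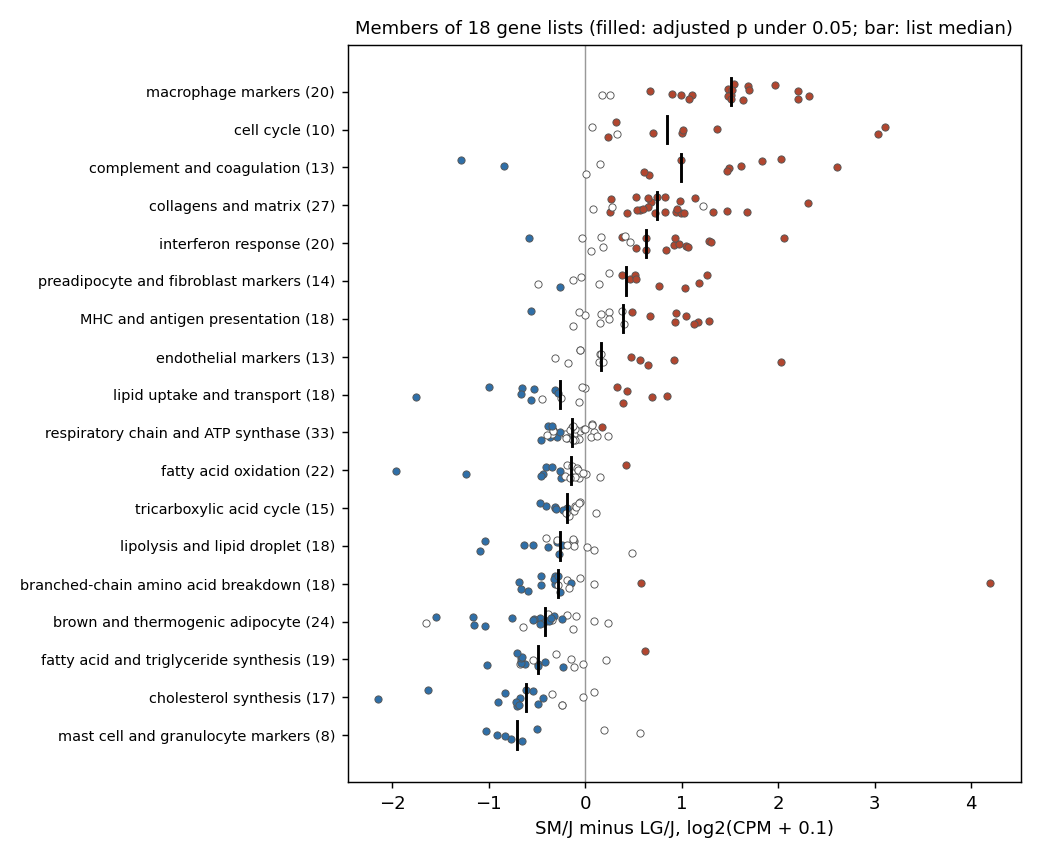
Members of 18 gene lists, with the number measured in brackets, placed by their SM/J minus LG/J difference on the log2(CPM + 0.1) scale, filled where adjusted p was under 0.05 (red higher, blue lower) and open otherwise, with a bar at the list median. Macrophage markers have the highest median (1.51) and mast cell and granulocyte markers the lowest (-0.71), while Bcat1 lies alone at 4.19.

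No gene had a strain difference that differed by sex at adjusted p under 0.05 in limma (0 of 12450, or 0%), and 1245 genes had an unadjusted p under 0.05. With 4 animals per strain and sex, single libraries moved this count: it was 27 genes with a difference above 0 and 12 below without LG/J male 537, and 9 and 5 without SM/J male 700. Within females 2752 genes were higher and 2516 lower in SM/J, and within males, which include LG/J 619 and 625, 1159 were higher and 1104 lower. Of the 171 called genes whose differences were followed across settings, 55 were not called in males alone. Cidea, for example, differed by -0.33 in males alone (adjusted p = 0.181). Kcnk3 was called in both sexes, at -1.38 in females and -0.68 in males. In males alone 5 brown adipocyte genes were lower and 2 higher, and 4 fat synthesis and 3 cholesterol synthesis genes were lower with none higher.

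Few genes passed the test of age. The strain difference at 30 weeks differed from that at 20 weeks for 3 genes (0.0241%), and 1300 had an unadjusted p under 0.05. The 3 were Dut, which removes uracil nucleotides before DNA synthesis (0.56 ± 0.10, adjusted p = 0.0312), Tctn1, a ciliary gene (0.75 ± 0.13, adjusted p = 0.0312), and Gldc (-1.22 ± 0.23, adjusted p = 0.0451). Tctn1 was named after its value was seen. Dut was higher in SM/J by 0.40 at 30 weeks and differed by -0.16 at 20 weeks. None was called without further scaling. With 1 of the 32 libraries left out in turn, no gene was called above 0 in 20 cases and none below 0 in 24, and Dut lost its call in 22 (adjusted p 0.0515 to 0.102). The highest counts were 5 above 0 and 17 below, without SM/J male 734 of the 20-week group. Of the 5961 genes called at 30 weeks, 5791 (97.15%) had the same sign in the other animals at 20 weeks and 4611 (77.35%) were called there with that sign. Only 4 were called with the opposite sign. The 20-week libraries come from the same 2 tables. At 20 weeks 14 brown adipocyte genes were lower and 1 higher, 19 of 20 macrophage markers and all 10 cell cycle genes were higher, and 23 of 33 respiratory chain genes were lower. Of all genes 25.8% were higher and 25.1% lower at 20 weeks.

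The strain difference differed between diets for 3210 of 12257 genes (26.2%). The value on high-fat minus that on low-fat was above 0 for 1488 (12.1%) and below 0 for 1722 (14%). The authors normalised each strain and diet separately, so diet and normalisation cannot be told apart here. Without further scaling the split was 4051 and 639 and the median of all genes was 0.232, so directions below are relative to the median gene. Of the 5896 genes called on the high-fat diet that were also measured on the low-fat diet, 4543 (77.05%) had the same sign there, 2480 were called with that sign and 265 with the opposite. On the low-fat diet 18.6% of all genes were higher and 20.9% lower in SM/J. Ucp1 did not differ by strain on the low-fat diet beyond its spread, with means of 4648 ± 970 CPM (SD, n = 8) in SM/J and 4351 ± 915 CPM (SD, n = 8) in LG/J (0.09 ± 0.14, adjusted p = 0.629), and the change between diets was -0.87 ± 0.21 (adjusted p = 0.00347). In glycolysis 18 of 20 genes changed below 0 and none above, with 10 genes higher and none lower in SM/J on the low-fat diet. Of the 24 brown adipocyte genes 15 changed below 0 and 3 above, of the 19 fat synthesis genes 11 and 1. Interferon response genes changed above 0 in 13 of 20 cases and below in none, and on the low-fat diet 4 were lower in SM/J, near the share of all genes, and none was higher. Macrophage markers changed above 0 in 3 of 20 cases, and on the low-fat diet 6 were higher and none lower.

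Among the genes named for the diet change, Elovl3 had the largest (-4.16 ± 1.12, adjusted p = 0.00763): on the low-fat diet it was higher in SM/J, with 131 ± 84.0 CPM (SD, n = 8) against 41.9 ± 44.3 CPM (SD, n = 8). Gys2, a glycogen synthase, changed by -2.82 ± 0.37 (adjusted p = 2.32e-05), with a strain difference of 1.52 on low-fat and -1.28 on high-fat. Adprhl1 changed by -3.12 ± 0.65 and Rims4 by -2.23 ± 0.37. Changes above 0 were found for Eya2 (2.48 ± 0.66), a phosphatase and transcription cofactor, Apcdd1 (2.44 ± 0.44), a Wnt inhibitor, Casp12 (2.24 ± 0.47), an inflammatory caspase, and Rsad2 (2.23 ± 0.39). On low-fat Rsad2 was lower in SM/J by 1.78 ± 0.21. Lep changed by 1.49 ± 0.54 (adjusted p = 0.0403), a call that ended when any of 15 libraries was left out in turn (adjusted p 0.0556 to 0.0731).

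White fat of the same animals shared the direction of most of these strain differences, though not of all. The strain difference in brown minus white fat passed the test for 3958 of 12123 genes (32.6%), 1956 above 0 (16.1%) and 2002 below (16.5%). Brown and white fat were also normalised separately, so tissue and normalisation cannot be told apart here. Of the 5824 genes called in brown fat and measured in white fat, 4375 (75.12%) had the same sign there, 2323 were called with that sign and 418 with the opposite. Lep showed no strain difference in white fat beyond its spread, at 4498 ± 838 CPM (SD, n = 8) in SM/J and 4799 ± 1628 CPM (SD, n = 8) in LG/J, so that its difference between tissues was 2.72 ± 0.36 (adjusted p = 5.63e-05). Npr3 was likewise at 2134 ± 154 CPM (SD, n = 8) and 2272 ± 327 CPM (SD, n = 8) in white fat (2.31 ± 0.32 between tissues, adjusted p = 6.81e-05). Gpt2 was higher in SM/J white fat by 1.31, against 4.24 in brown fat (2.91 ± 0.22 between tissues).

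The strain difference reversed between the tissues at some genes and differed in size at others. Aldh1a7 was lower in SM/J brown fat and higher in its white fat (77.7 ± 27.8 against 44.1 ± 10.4 CPM, SD, n = 8 each), a change of -4.67 ± 0.37. C4a, a complement gene that shares 30.6% of its 50-base stretches with C4b, differed by 1.12 in brown and 5.36 in white fat (-4.25 ± 0.23). Ncan, the proteoglycan neurocan, changed by -4.52 ± 0.62 and Tmem45a by -3.36 ± 0.30. Above 0 were Mgl2, a lectin of macrophages (3.63 ± 0.28), lower in SM/J by 4.25 in white fat and by 0.60 in brown, H2-Q10 (3.60 ± 0.21), Bcat1 (3.44 ± 0.36) and Sncg (3.26 ± 0.41). The Mgl2 call in brown fat ended without the 6 libraries of highest muscle marker sum (-0.40, adjusted p = 0.0836). Cholesterol synthesis genes changed below 0 in 12 of 17 cases and above in none, with 5 higher and 3 lower in SM/J white fat, where 19.2% of all genes were higher and 18.5% lower. Across high-fat brown fat at both ages, low-fat brown fat and high-fat white fat, 1152 of 5774 genes called at 30 weeks on high-fat were called with the same sign in all 4 groups.

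**Figure D4:**
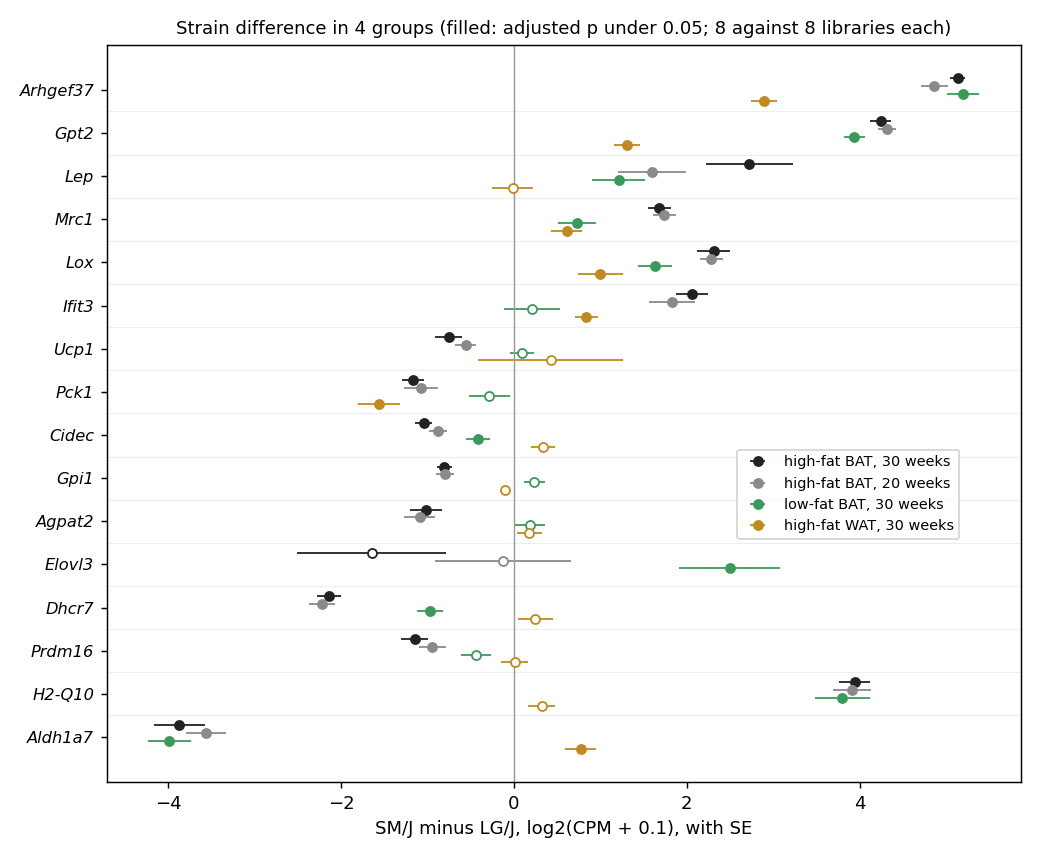
SM/J minus LG/J difference on the log2(CPM + 0.1) scale, with its standard error, for 16 genes in 4 groups of 8 against 8 libraries, filled where adjusted p was under 0.05 in that group. Arhgef37 and Gpt2 lie above 0 in every group, Ucp1 lies below 0 and is filled at both ages on high-fat only, and Aldh1a7 is below 0 in brown fat (-3.87) and above 0 in white fat (0.77).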

How the data were processed

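The submitters' processing notes name STAR 2.6.0c and edgeR. The deposited values, 1 table per strain, diet and tissue with 16 libraries each, are the authors' normalised counts (signal), not whole counts, so no count test was run. Genes in both tables were converted to CPM, rescaled together by the trimmed mean of M values and tested as log2(CPM + 0.1) with limma 3.58.1 in R 4.3.3, trend option, sex as covariate. The fitting script was tested on simulated data. Interactions with sex, age, diet and tissue used the same model. The tissue fit has the animal as a block, since brown and white fat with the same number come from 1 animal: deviations correlated at a median of 0.215 in SM/J and 0.122 in LG/J, all above 0, and 5 of 8 animals matched best with themselves in each strain. The members and gene lists were chosen with earlier results of these data known.

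Named genes were the 10 largest differences in each direction with a mean of at least 5 CPM and groups apart, the 6 most abundant differing by at least 1, up to 4 per direction for each interaction, up to 4 of smallest p per list, and 12 fixed genes. A few genes that these rules name are not reported here. Other list members were named as examples after their values were seen. Per the labels the replicates are biological. Both strains were compared with the mouse reference, and the share of 50-base stretches found in other genes was counted in its transcripts. Alternatives were other scalings, pseudocounts, filters, sexes alone, single libraries left out, library weights, quantile normalisation and muscle marker covariates.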

Additional observations from a re-analysis of the deposited data

Results flagged for a closer look

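Among the genes named above, 366 groups of 8 libraries were screened for 1 library far from the other 7, and 14 were flagged, while chance flags about 1 in 20 groups. SM/J male 700 was highest for Cxcl12 (85.78 CPM), Cyp51 (29.82) and Hsp90aa1 (600.2) and lowest for Ncoa1 (67.33) and Sncg (216.8). SM/J female 646 was highest for C1qb (84.81 CPM), Hp (3620) and Mthfd1 (104.1), and SM/J male 653 for Srebf2 (42.93). LG/J female 510 was lowest for F13a1 (15.06 CPM) and Ighm (0.989) and highest for Ppa1 (553.8). LG/J male 619 was highest for Rsad2 (31.43 CPM), and LG/J male 533 was lowest for Scarb1 (32.59).

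The strain difference itself differed between groups, by an interaction term, for 3 genes by age, 3210 by diet and 3958 by tissue. By age, Dut changed by 0.5556. By diet, Eya2 (2.478), Apcdd1 (2.441), Casp12 (2.243) and Rsad2 (2.232) were more positive on high-fat, and Elovl3 (-4.157), Adprhl1 (-3.12), Gys2 (-2.817) and Rims4 (-2.228) more negative. By tissue, Mgl2 (3.627), H2-Q10 (3.598), Bcat1 (3.437) and Sncg (3.263) were more positive in brown fat, and Aldh1a7 (-4.673), Ncan (-4.523), C4a (-4.251) and Tmem45a (-3.361) more negative.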

How the results depend on the processing

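Of 171 called strain differences followed over 29 settings, 155 kept their direction and call under every setting but males alone. The main counts (3052 higher, 2909 lower) became 1159 and 1104 in males alone, 2027 and 2066 without the 6 libraries of highest muscle marker sum, chosen after seeing the data, and 2803 to 3089 and 2663 to 2972 with 1 library left out. Without further scaling they were 3760 and 2063, 64.6% higher against 51.2%. The sex counts of 0 and 0 became 1 and 0 without further scaling, 0 to 27 and 0 to 12 with 1 library left out, and 2 above 0 without LG/J female 688. The age counts of 2 and 1 became 0 and 0 without further scaling, 1 and 0 at a mean of at least 5 CPM, and 0 to 5 and 0 to 17 with 1 library left out. The diet counts of 1488 and 1722 became 4051 and 639 without further scaling (86.4% above 0 against 46.4%), 2061 and 1998 without LG/J males 619 and 625, and 1172 to 1759 and 1460 to 1838 with 1 library left out. The tissue counts of 1956 and 2002 became 2229 and 1415 without further scaling (61.2% against 49.4%) and 1706 to 2109 and 1624 to 2193 with 1 library left out. No paired analysis was possible because the strains share no animals in the main comparison; without the animal block the tissue counts were 1766 and 1772. Uncalled differences changed sign for Adipoq (0.115) and Lhx8 (0.018) in males alone, Pparg (0.028) and Acta1 (-0.099) in females alone, and Apcdd1 (0.231) without the 6 muscle-high libraries. The cause was not tested. Read depth per library is not given in the sources used here.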

Other observations

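Genes listed in 1 strain's table only could not be compared: 802 in SM/J, of which 61 had a mean of at least 5 CPM there, and 266 in LG/J, of which 22 had. Among the SM/J genes were Stab2, a scavenger receptor of sinusoidal endothelium (75.3 to 156 CPM, mean 104), the macrophage elastase Mmp12 (10.5 to 19.4 CPM) and the muscle gene Myh4 (0.0292 to 453 CPM). The LG/J genes included the potassium channel Kcnk2 (mean 17.4 CPM) and Fndc5 (6.41 to 28.7 CPM). Of 18 muscle markers 17 were listed in the SM/J table and 5 in the LG/J table. These genes were named after their values were seen.

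Some neighbouring genes differed alike. On chromosome 4, Bspry, Hdhd3 and Alad (62480053 to 62519918) were lower in SM/J by 2.23, 2.57 and 2.03. On chromosome 9, the caspase genes Casp1, Casp4 and Casp12 (5298517 to 5373032) were higher by 1.36, 2.02 and 1.70. On chromosome 1, the interferon-inducible genes Aim2, Ifi207 and Ifi204 (in 173350879 to 173798270) were higher by 1.02, 1.23 and 1.43.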
